A study of Mus musculus with 2 samples.

Results

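The genes described are 10 members of the YAP and TEAD pathway: the coactivator genes Yap1 and Wwtr1, the transcription factor genes Tead1 and Tead2, the kinase gene Lats2, the angiomotin family genes Amotl1 and Amotl2, and the target genes Ctgf, Cyr61 and Ankrd1. They were taken by name, and all 10 had a probe, of 16387 named genes on the array. Ctgf is now called Ccn2 and Cyr61 is now called Ccn1. RNA of mouse liver with and without MMP-14, a membrane-anchored matrix metalloproteinase, was set side by side on 2 arrays read in 2 colours. The P1 liver array carried whole liver, labelled postnatal day 1 although the design text gives E18.5, with RNA mixed from 2 MMP-14 KO livers in the Cy3 channel and from 2 wild-type livers in the Cy5 channel. The E14 Dlk+ array carried sorted cells that were positive for Dlk and negative for CD45, CD71 and Ter119, labelled E14 and given as E14.5 in the design text, with RNA of 100000 cells from 3 MMP-14 KO livers in Cy3 and from 3 wild-type livers in Cy5. The kind of knockout allele, the strain and the sex of the animals are not given in the sources used here. There was 1 array per comparison and no dye swap, so no value below has an error between animals, no test was possible, and an effect of the dye on a single probe cannot be told apart from genotype. Fewer cells of a type and less RNA per cell cannot be told apart in such pooled samples.

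YAP and its paralog TAZ, the product of Wwtr1, are coactivators without a DNA-binding domain of their own, and they reach promoters and enhancers through TEAD transcription factors. The Hippo kinases, LATS1 and LATS2 last in the chain, phosphorylate YAP and TAZ and keep them out of the nucleus, and matrix stiffness and cell shape also act on YAP and TAZ. Ctgf, Cyr61 and Ankrd1 are widely used readouts of this pathway, and Lats2 and Amotl2 are both regulators and targets of YAP, forming negative feedback. In liver, YAP is known for its part in organ size, in bile duct cell fate and in the activation of stellate cells.

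Values are given as the spot signal of each channel in scanner units, against a detection threshold set at the mean plus 2 SD of the blank spots after trimming. The thresholds were 87.0 for the knockout and 50.5 for the wild type on the P1 liver array, and 85.1 and 44.3 in the knockout and wild-type channels of the E14 Dlk+ array. Of the blank spots, from 6.47% to 8.04% lay above these thresholds, so a signal just over one is weak evidence of a transcript. The Cy3 reading of a probe was typically 1.57 times its Cy5 reading on the P1 liver array and 2.17 times on the E14 Dlk+ array (medians), so raw signals of the channels are not comparable as they stand. Each ratio is the log2 of the knockout over the wild-type signal after normexp background correction with an offset of 50 and loess. The authors' deposited table gives a second value without that offset and without loess, matched by subtraction of the blank mean and median centring. Where a gene had several probes, the median SD between them was 0.12 on the P1 liver array and 0.070 on the E14 Dlk+ array (log2, 140 genes on each), which is a technical spread only.

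The targeted gene Mmp14 had signals of 104 for the knockout and 161 for the wild type on the P1 liver array, and of 132 and 131 in the knockout and wild-type channels of the E14 Dlk+ array. Its log2 ratio was -1.30 on the P1 liver array and -1.13 on the E14 Dlk+ array, and the authors' deposited values were -2.83 and -2.13 in that order. The knockout signal of Mmp14 still lay 9.64 blank SD above the blank mean on the P1 liver array and 23.3 on the E14 Dlk+ array. The sorted cells carried the marker of their gate, with Dlk1 signals of 11869 in the knockout and 4971 in the wild-type channel. All 11 hepatoblast and hepatocyte markers on the array were detectable in both channels there, beside 12705 of all 16387 named genes. The wild-type channel of the P1 liver array held lung transcripts: 14 of 14 lung epithelial markers were detectable in it, against 9 in the knockout channel. Of all 16390 named genes, 13310 were detectable in that wild-type channel and 13252 in the knockout channel. The summed signal of the lung markers above the blank mean was 374 for the knockout and 43257 for the wild type. Of the 14, 5 were detectable in both channels of the E14 Dlk+ array, beside 12705 of 16387 named genes, with a median log2 ratio of -0.0063. Each P1 ratio and each level of the P1 wild-type channel below stands beside this imbalance, and its part in them was not tested.

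All 10 genes were detectable in both channels of both arrays, as were 12005 of all named genes (16390 on the P1 liver and 16387 on the E14 Dlk+ array). Ankrd1 in both P1 channels and the E14 wild type, and Tead2 in the P1 knockout, were only 1.01 times over their thresholds. At the blank mean plus 3 SD, 8 of the 10 remained on the P1 liver array and 9 on the E14 Dlk+ array (12089 and 12179 of all genes). On the P1 liver array 2 of the 10, Ctgf and Cyr61, were at least 1.5-fold lower in the knockout, against a background of 4.12% of the 12715 genes detectable in both channels, and 0 reached that fold in the other direction (background 2.84%). Cyr61 alone was at least 2-fold lower there (background 1.45%), with none 2-fold higher (background 0.558%). None of the 10 reached 1.5-fold on the E14 Dlk+ array, where the background was 0.307% of 12705 genes for higher and 0.22% for lower, and 0.0157% and 0.0945% at 2-fold. In the authors' deposited table, which lacks the offset and loess, 6 were at least 1.5-fold lower and 2 higher on the P1 liver array (backgrounds 12.2% and 11.9%). On the E14 Dlk+ array 2 were higher and 0 lower in that table (backgrounds 5.38% and 1.22%). The 1.5-fold threshold is 0.58 on the log2 scale, and Ctgf was just past it on the P1 liver array, at -0.591, while Lats2 (-0.575) and Amotl2 (-0.568) fell just short.

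**Figure D1:**
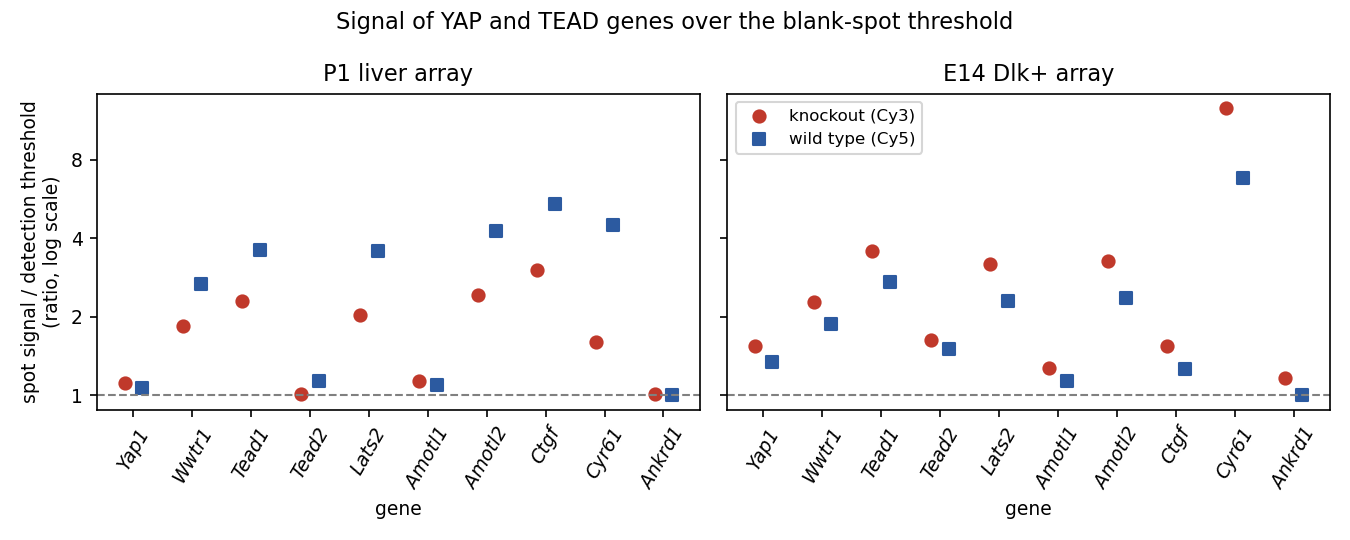
Spot signal of each gene divided by the detection threshold of its channel (vertical axis, ratio on a log scale with base 2, 1 is the threshold), for the knockout (circles) and wild type (squares) of the P1 liver array and the E14 Dlk+ array. The vertical positions are not corrected for dye, and Ankrd1 sits on the line in the wild-type channel of both arrays, while Cyr61 in the E14 knockout channel is the highest point at 12.7.

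The target gene Cyr61 encodes a secreted matricellular protein of the CCN family that binds integrins and is induced quickly by YAP and by serum. Cyr61 had a signal of 139 for the knockout and 227 for the wild type on the P1 liver array, and of 1078 for the knockout and 303 for the wild type on the E14 Dlk+ array. The knockout was the dimmer channel on the P1 liver array although Cy3 read higher for most probes, and the log2 ratio was -1.30, or 2.46-fold lower in the knockout, which is the 98th lowest of 12715 genes. Its log2 ratio on the E14 Dlk+ array was 0.57, or 1.48-fold higher in the knockout, the 45th highest of 12705 genes. Cyr61 in the authors' deposited table stood at -2.10 on the P1 liver array and at 0.59 on the E14 Dlk+ array. Moving both signals by 1 SD of the blank spots in opposite directions left the authors' value between -2.17 and -2.03 on the P1 liver array. On the E14 Dlk+ array it stayed between 0.58 and 0.60. These ranges cover the noise of blank spots only and not other errors of a bright spot. Over all settings the ratio ran from -2.10 to -1.07 on the P1 liver array and from 0.51 to 1.22 on the E14 Dlk+ array.

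The promoter of Cyr61 is shown because this gene had the largest loess ratios of the 10 and carries, within 250 bases before its start, the letters of the TEAD core motif GGAATG, searched on both strands, where the reverse strand reads CATTCC. The stretch is chr3:145649986-145650235 on the minus strand (RefSeq, GRCm38.p6), 5′ to 3′, with the match in capitals. It lies 103 to 98 bases before the start.
Cyr61: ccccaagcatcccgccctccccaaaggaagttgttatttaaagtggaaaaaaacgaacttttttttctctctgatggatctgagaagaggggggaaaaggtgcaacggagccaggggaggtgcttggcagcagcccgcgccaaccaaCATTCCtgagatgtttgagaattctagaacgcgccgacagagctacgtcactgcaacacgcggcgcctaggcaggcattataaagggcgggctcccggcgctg

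Ctgf encodes another CCN protein, a matricellular factor of fibrosis and a standard readout of YAP activity. Ctgf had signals of 263 for the knockout and 273 for the wild type on the P1 liver array, and of 132 for the knockout and 55.9 for the wild type on the E14 Dlk+ array. Its log2 ratio was -0.59 on the P1 liver array, at the 4.04th percentile of genes, and 0.18 on the E14 Dlk+ array, at the 90.6th percentile. In the authors' deposited table the values were -0.76 and 0.56 on the P1 liver and E14 Dlk+ arrays. On the E14 Dlk+ array the wild-type signal was only 13.6 units above the blank mean, and the authors' value ranged from 0.39 to 0.73 when both signals were moved by 1 blank SD.

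Ankrd1 encodes a nuclear ankyrin repeat protein of muscle and injured tissue, and it could not be measured with any precision here. Its signals were 87.6 for the knockout and 50.7 for the wild type on the P1 liver array, both 1.01 times the threshold. On the E14 Dlk+ array they were 99.4 in the knockout and 44.5 in the wild-type channel, so the wild type lay 2.27 blank SD above the blank mean and the knockout 8.43. The log2 ratio was 0.0049 on the P1 liver array and 0.14 on the E14 Dlk+ array. Ankrd1 in the authors' deposited table stood at 0.47 on the P1 liver array and at 1.69, the 99.95th percentile of genes, on the E14 Dlk+ array. Blank noise of 1 SD moved the authors' value from -0.89 to 1.85 on the P1 liver array and from 0.99 to 2.69 on the E14 Dlk+ array. With the stricter threshold of the blank mean plus 3 SD, Ankrd1 was no longer detectable in either channel of the P1 liver array or in the wild type of the E14 Dlk+ array.

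Lats2 and Amotl2, both feedback genes of the pathway, had nearly the same loess ratios as each other on both arrays. Lats2, a kinase that phosphorylates YAP and TAZ, had signals of 177 for the knockout and 181 for the wild type on the P1 liver array, and of 271 for the knockout and 102 for the wild type on the E14 Dlk+ array. Its log2 ratios were -0.58 on the P1 liver array and 0.25 on the E14 Dlk+ array, and the authors' deposited table has -0.93 and 0.33 on the P1 liver and E14 Dlk+ arrays. Amotl2, an angiomotin family scaffold that binds YAP at junctions, had signals of 211 for the knockout and 216 for the wild type on the P1 liver array, and of 278 for the knockout and 104 for the wild type on the E14 Dlk+ array. Its log2 ratios were -0.57 on the P1 liver array and 0.24 on the E14 Dlk+ array. The authors' deposited table has -0.82 and 0.32 for Amotl2 on the P1 liver and E14 Dlk+ arrays. The ratio of Amotl2 on the P1 liver array turned to 0.50 when the local background was subtracted and to 0.16 when it was used in normexp. The local background of that spot was 176 for the knockout and 196 for the wild type. Lats2 kept its sign on the P1 liver array but moved to -0.31 and -0.12 under the same settings, in that order. Its spot there had a local background of 128 for the knockout and 130 for the wild type.

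Amotl1, the close relative of Amotl2, did not share its pattern of signs. Amotl1 had signals of 99.0 for the knockout and 55.3 for the wild type on the P1 liver array, and of 108 for the knockout and 50.03 for the wild type on the E14 Dlk+ array. These stood from 1.10 to 1.27 times over their thresholds, and the log2 ratios were 0.13 on the P1 liver array and 0.081 on the E14 Dlk+ array. In the authors' deposited table Amotl1 stood at 0.74 and 0.49 on the P1 liver and E14 Dlk+ arrays. Blank noise of 1 SD moved the P1 value between 0.31 and 1.19.

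The coactivator genes differed between themselves on the P1 liver array. Yap1 had signals of 96.6 in the knockout and 54.0 in the wild-type channel there, and of 131 for the knockout and 59.6 for the wild type on the E14 Dlk+ array, so it was dim in all 4 channels. Its log2 ratio was 0.11 on the P1 liver array and 0.074 on the E14 Dlk+ array, with 73.1% and 73.4% of genes below it. Wwtr1, which encodes TAZ, was brighter, with 161 for the knockout and 135 for the wild type on the P1 liver array, and 194 for the knockout and 82.8 for the wild type on the E14 Dlk+ array. Its log2 ratio was -0.30 on the P1 liver array, at the 11.8th percentile, and 0.10 on the E14 Dlk+ array. In the authors' deposited table Wwtr1 stood at -0.59 on the P1 liver array while Yap1 stood at 0.81. Blank noise of 1 SD left the P1 value of Wwtr1 between -0.65 and -0.53 but that of Yap1 between 0.29 and 1.35.

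The TEAD genes encode the DNA-binding partners of YAP and TAZ. Tead2 had signals of 87.6 for the knockout and 57.3 for the wild type on the P1 liver array, and of 138 for the knockout and 66.4 for the wild type on the E14 Dlk+ array. Its log2 ratio was -0.16 on the P1 liver array and -0.018 on the E14 Dlk+ array, and it was the only gene of the 10 below 0 on both. Under median centring the E14 ratio of Tead2 turned to 0.063, but it differed from the median of all genes on the E14 Dlk+ array by -0.22 on the log2 scale. In the authors' deposited table the P1 value of Tead2 was -1.30, but the knockout signal lay 2.29 blank SD above the blank mean and the value ranged from -2.30 to -0.57 with 1 SD of blank noise. Tead1 had 2 probes that gave different answers. The probe annotated as Tead1 was dim, with 93.8 for the knockout and 55.5 for the wild type on the P1 liver array, and 98.1 and 48.4 in the knockout and wild-type channels of the E14 Dlk+ array. Its log2 ratios were 0.019 on the P1 liver array and -0.0031 on the E14 Dlk+ array. The second probe carries an older symbol, 2610024B07Rik, that the RefSeq gene table lists under Tead1. That probe had 305 for the knockout and 309 for the wild type on the P1 liver array, and 510 for the knockout and 192 for the wild type on the E14 Dlk+ array. Its log2 ratios were -0.56 on the P1 liver array and 0.18 on the E14 Dlk+ array, so the brighter probe had the signs of Lats2 and Amotl2 and the dim one was near 0. The mean of both, -0.27 on the P1 liver array and 0.090 on the E14 Dlk+ array, is the gene's value in the counts.

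**Figure D2:**
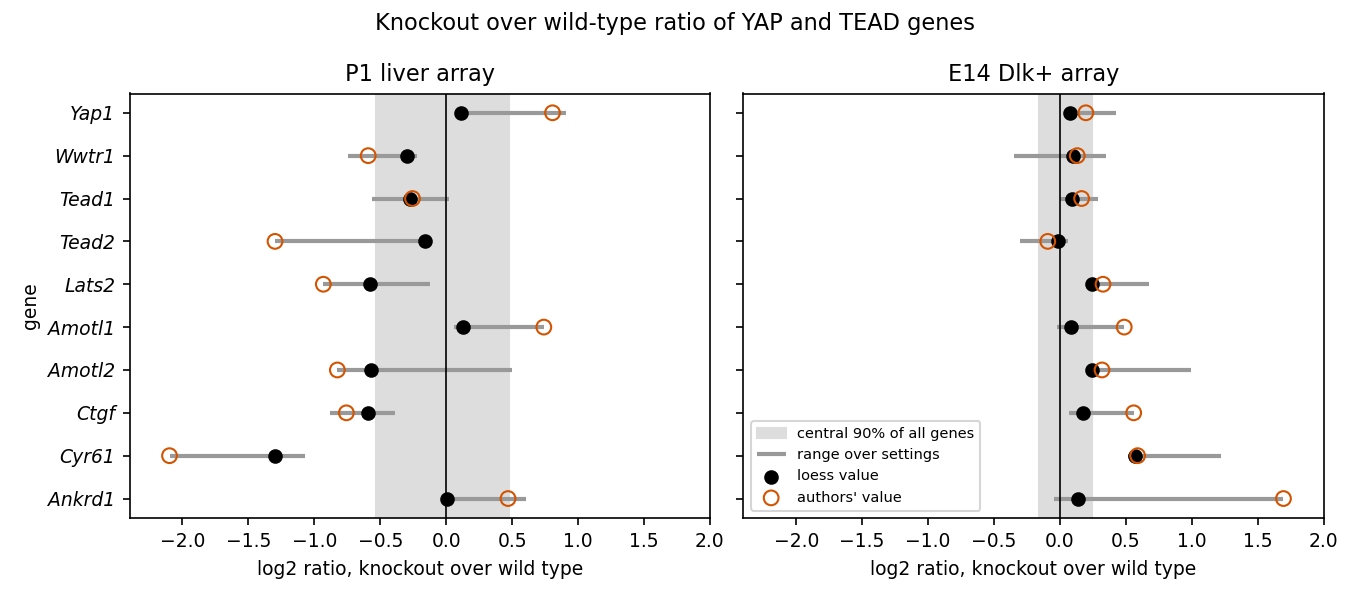
Log2 ratio of knockout over wild type (horizontal axis) for the 10 genes on the P1 liver array and the E14 Dlk+ array, with the loess value (filled), the authors' deposited value (open), the range over all settings tried (line) and the central 90 percent of all genes (grey). Cyr61 (-1.30 and 0.57), Lats2 (-0.58 and 0.25) and Amotl2 (-0.57 and 0.24) lie outside the grey band on both arrays, below it on the P1 liver array and above it on the E14 Dlk+ array.

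Read as a group, the 10 genes had a median log2 ratio of -0.28 on the P1 liver array, where the median of all genes was -0.0017, and of 0.12 on the E14 Dlk+ array, where it was 0.0068. Of the 10, 7 were below 0 on the P1 liver array, beside 50.4% of all genes, and 3 above, beside 49.6%. Above 0 on the E14 Dlk+ array were 9 of the 10, beside 53.1% of all genes, and 1 below, beside 46.9%. The E14 count depends on the loess step: with the ratios centred on the array median in place of loess, the median of all genes moved to 0.28, and 5 of the 10 then lay above it and 5 below. Cyr61, Amotl2, Lats2, Wwtr1 and Tead1 were the 5 above, by 0.94, 0.34, 0.33, 0.062 and 0.0028 on the log2 scale. On the P1 liver array the count below the median of all genes was 8 of 10 under median centring, and it was 6 of 10 when the local background was subtracted or used in normexp.

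Of the 10 genes, 6 were below 0 on the P1 liver array and above 0 on the E14 Dlk+ array: Wwtr1, Tead1, Lats2, Amotl2, Ctgf and Cyr61. Use of the local background turned the sign of Amotl2 on the P1 liver array and of Wwtr1 on the E14 Dlk+ array, and the probe annotated as Tead1 turned that of Tead1 on both. Among the 12005 genes detectable in all 4 channels, 23.7% had these signs. The same 6 had them in the authors' deposited table, where the share among those genes was 21.8%. The arrays differ in stage and in cell population at once, so these cannot be told apart, and the difference was not tested.

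Promoter stretches are shown for Amotl2 and Ankrd1 as further targets and, around the match only, for Yap1 and Wwtr1, to set the letters of the TEAD core beside the ratios. Of the 10 genes 8, all but Ctgf and Tead1, had an entry in the RefSeq promoter table, which here covers 250 bases before each start, and 5 of these 8 held GGAATG or CATTCC: Yap1, Wwtr1, Amotl2, Cyr61 and Ankrd1. Counted by entry, as some genes have more than 1, 6 of the 10 entries of these genes held it, beside 12.6% of all 32851 entries of the table. The 2 entries of Wwtr1 overlap and hold the same match, so that site is counted more than once. Ankrd1 held it at 2 places, as did 1.02% of entries (2 or more). None of these 8 held a CArG box, the element of serum response factor, found in 1.47% of entries. The stretches are chr9:102717554-102717803 on the plus strand for Amotl2 and chr19:36119845-36120094 on the minus strand for Ankrd1, and the Yap1 and Wwtr1 matches lie within chr9:8004597-8004846 and chr3:57575911-57576160, both on the minus strand (GRCm38.p6), all written 5′ to 3′ with the matches in capitals.
Amotl2: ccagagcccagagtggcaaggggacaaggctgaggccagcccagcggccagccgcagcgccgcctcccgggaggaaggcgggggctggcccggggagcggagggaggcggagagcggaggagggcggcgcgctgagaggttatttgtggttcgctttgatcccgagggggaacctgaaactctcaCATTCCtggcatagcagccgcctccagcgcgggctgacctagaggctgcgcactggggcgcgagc
Ankrd1: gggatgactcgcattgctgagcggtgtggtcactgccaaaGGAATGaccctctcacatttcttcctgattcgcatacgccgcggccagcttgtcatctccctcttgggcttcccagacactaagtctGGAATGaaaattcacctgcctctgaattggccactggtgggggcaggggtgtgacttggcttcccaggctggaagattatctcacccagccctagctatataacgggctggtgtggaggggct
Yap1: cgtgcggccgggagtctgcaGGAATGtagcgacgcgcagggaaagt
Wwtr1: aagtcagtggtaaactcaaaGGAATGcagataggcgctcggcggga
The match lies 65 to 60 bases before the start in Amotl2, 141 to 136 in Yap1 and 136 to 131 in the first entry of Wwtr1, and in Ankrd1 the 2 matches begin 210 and 123 bases before it. On the P1 liver array the 5 holders had ratios of -1.30 (Cyr61), -0.57 (Amotl2), -0.30 (Wwtr1), 0.0049 (Ankrd1, near its threshold) and 0.11 (Yap1). A match to 6 letters is a description and not a binding site.

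Other genes known as YAP and TEAD targets were read from a list of 30, of which 25 were on the array. In both channels of the P1 liver array 23 were detectable, with 17 below 0 and 6 above, a median log2 ratio of -0.14, 3 past 1.5-fold lower and 1 past 1.5-fold higher (backgrounds 4.12% and 2.84%). The number lower was 9 in the authors' deposited table, 7 with the local background subtracted and 6 with an offset of 16, where the backgrounds were 12.2%, 14.8% and 6.37%. The 3 lower by the loess values were Fstl1 (-1.89), a secreted follistatin-like glycoprotein of mesenchyme, F3 (-1.04), which encodes tissue factor, and Rbms3 (-0.80), an RNA-binding protein gene. Gadd45b (0.89), a stress-induced gene, was the higher one. In both channels of the E14 Dlk+ array 21 were detectable, with 13 above 0 and 8 below, a median of 0.031, 2 past 1.5-fold higher and 0 past 1.5-fold lower (backgrounds 0.307% and 0.22%). Under median centring 7 were past 1.5-fold higher there, beside 24.8% of all genes. The 2 higher by the loess values were Igfbp3 (0.98), which encodes an IGF-binding protein, and Ccdc80 (0.60), a matrix protein gene. Fstl1 had signals of 295 for the knockout and 720 for the wild type on the P1 liver array, and of 2620 for the knockout and 735 for the wild type on the E14 Dlk+ array, and its E14 ratio was 0.56, so it had the signs of Cyr61 on both arrays. Other bright genes of the list were Birc5, a mitotic survival gene, at -0.39 and -0.13, Anln, a cytokinesis gene, at -0.16 and 0.14, and Gadd45a, a stress-induced gene, at 0.098 and -0.021 on the P1 liver and E14 Dlk+ arrays.

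Other genes of the Hippo pathway were read from a list of 26, of which 23 were on the array, and Ajuba and Ptpn14 are in this list and in that of the targets. Of these, 21 were detectable in both channels of the P1 liver array, with 17 below 0 and 4 above, a median of -0.085, and 0 past 1.5-fold in either direction by the loess values. In the authors' deposited table the number past 1.5-fold was 5 lower and 2 higher, with the local background subtracted 6 and 1, and with an offset of 16 the counts were 4 and 0 (backgrounds for lower 12.2%, 14.8% and 6.37%). By the loess values the lowest was Wwc1 at -0.56, which encodes KIBRA, an activator of LATS kinases, with signals of 578 in the knockout and 570 in the wild-type channel. The highest was Map4k4 at 0.26, which encodes a kinase that can act on LATS in parallel to the Hippo kinases. Of the same genes, 20 were detectable in both channels of the E14 Dlk+ array, with 11 above 0 and 9 below, a median of 0.036 and 0 past 1.5-fold. Under median centring 6 were past 1.5-fold higher there, beside 24.8% of all genes, against 1 in the authors' deposited table, beside 5.38%. Among the brightest, Limd1 stood at -0.20 and 0.033 and Scrib at -0.030 and -0.080 on the P1 liver and E14 Dlk+ arrays. The paralogs of the members, named here after their values were seen, were dim on the P1 liver array, with Lats1 at 0.21, Tead3 at -0.032 and Tead4 at -0.0050. Lats1 stood at 1.17 times its threshold in the knockout and 1.08 times in the wild type, and in the authors' deposited table its P1 value was 1.18. Tead3 and Tead4 stood at 1.03 to 1.07 times their thresholds.

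**Figure D3:**
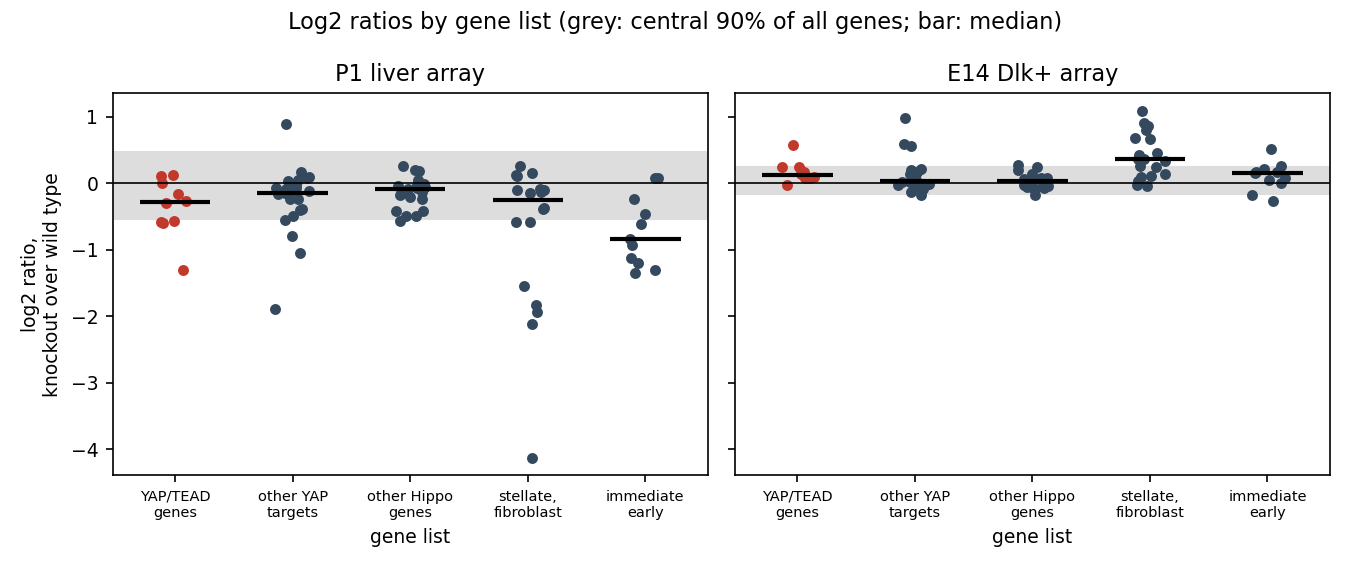
Log2 ratios of knockout over wild type (vertical axis) of the 10 YAP and TEAD genes, the other YAP targets, the other Hippo pathway genes, and stellate or fibroblast and immediate early markers, on the P1 liver array and the E14 Dlk+ array, for genes detectable in both channels, with the median as a bar. On the P1 liver array the medians of all 5 lists lie below 0, with immediate early genes at -0.83, and on the E14 Dlk+ array stellate and fibroblast markers have the highest median of the 5 at 0.37.

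The medians of markers of stromal cells and of rapid stress responses were below 0 on the P1 liver array and above 0 on the E14 Dlk+ array, as the 6 genes above were. The median of stellate cell, fibroblast and smooth muscle markers was -0.25 on the P1 liver array, with 14 of 18 detectable members below 0, and 0.37 on the E14 Dlk+ array, with 17 of 19 above 0. Their summed signal above the blank mean was 3710 for the knockout and 5694 for the wild type on the P1 liver array, and 28338 for the knockout and 8031 for the wild type on the E14 Dlk+ array. These sums are not corrected for dye. Over all genes they were 7.52e+06 for the knockout and 5.20e+06 for the wild type on the P1 liver array. On the E14 Dlk+ array the sums over all genes were 8.76e+06 and 3.93e+06 in the knockout and wild-type channels. Within this list the P1 ratios were uneven, from -4.12 for Mfap4 to 0.26 for Lhx2, with 4 of the 18 above 0. The part of the lung transcripts in these ratios was not tested. Immediate early and dissociation genes, which include other serum-responsive genes, had a median of -0.83 on the P1 liver array, with 9 of 11 below 0, and of 0.15 on the E14 Dlk+ array, with 9 of 11 above 0. Endothelial markers had a median of -0.59 on the P1 liver array and -0.034 on the E14 Dlk+ array, and mesothelial markers -0.22 and -0.14 on the P1 liver and E14 Dlk+ arrays. Macrophage markers had medians of -0.14 and -0.027 and erythroid markers of -0.75 and -0.0019 on the P1 liver and E14 Dlk+ arrays. Of the 11 hepatoblast and hepatocyte markers, 5 were past 1.5-fold lower on each array (backgrounds 4.12% on the P1 liver array and 0.22% on the E14 Dlk+ array). The medians of the 11 were -0.0060 on the P1 liver array and -0.12 on the E14 Dlk+ array. On the E14 Dlk+ array, sorted for such cells, the 5 included Alb (-1.31), Afp (-1.26) and Ttr (-1.36), all very bright. Alb there had 37592 for the knockout and 37881 for the wild type. Apoa1 (-0.76) and Ahsg (-0.69) were also among the 5. Under median centring, where the median of all genes there was 0.28, Alb stood at -0.54, Afp at -0.49 and Ttr at -0.60. Apoa1 then stood at -0.0033 and Ahsg at 0.075. The part of these cells in the ratios of the YAP and TEAD genes was not tested.

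The level of each gene was also compared between the arrays within 1 genotype, which keeps the dye the same. Whole liver is set against sorted cells of another stage here, and the P1 wild-type channel held lung transcripts. After quantile normalisation of the 2 channels of a dye, Cyr61 was lower on the P1 liver array than on the E14 Dlk+ array by a log2 difference of -2.84 in the knockout, at the 0.35th percentile of 12005 genes, and of -0.72 in the wild type, at the 8.85th percentile. Ctgf ran the other way, with a difference of 1.43 in the knockout and 1.81 in the wild type, at the 95.7th and 97.6th percentiles. Its E14 wild-type signal was 1.26 times the threshold. The background of 2-fold differences was 7.08% of genes for higher and 7.01% for lower on the P1 liver array in the knockout, and 5.76% and 4.34% in the wild type. Of the 10 genes Ctgf was the only one at least 2-fold higher in either genotype, and Cyr61, in the knockout, the only one at least 2-fold lower. Lats2 differed by -0.36 in the knockout and 0.41 in the wild type, and Amotl2 by -0.090 in the knockout and 0.63 in the wild type. Tead2 was lower on the P1 liver array by -0.74 in the knockout and -0.46 in the wild type, and Yap1 by -0.44 and -0.37 in the knockout and wild type.

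**Figure D4:**
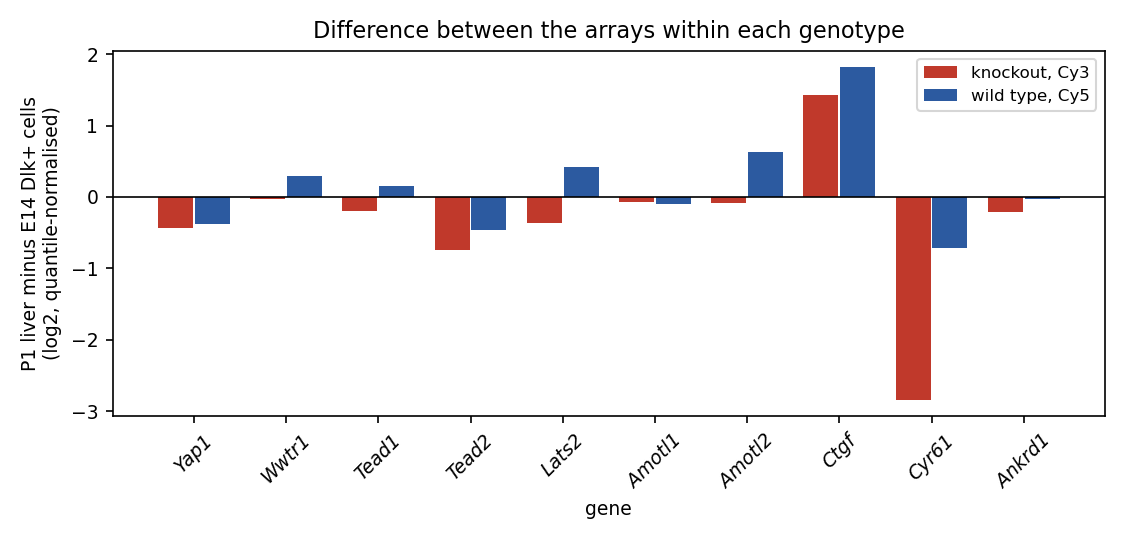
Difference between the P1 liver array and the E14 Dlk+ array within each genotype (vertical axis, log2, quantile-normalised channels of the same dye) for the 10 genes, with bars for the knockout (left of each pair) and the wild type (right). Ctgf is above 0 in both genotypes, at 1.43 and 1.81, and Cyr61 is below 0 in both, at -2.84 and -0.72.

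Over all 4 channels, after loess and Aquantile normalisation, the order of levels was opposite for the CCN genes with respect to the arrays. Cyr61 was highest in the E14 knockout channel at 9.40 on the log2 scale, then in the E14 wild type at 8.82, the P1 wild type at 8.01 and the P1 knockout at 6.71. Ctgf was highest in the P1 wild type at 8.33, then in the P1 knockout at 7.74, the E14 knockout at 6.51 and the E14 wild type at 6.34. With 1 array each, no spread over animals can be set beside these orders. The genes with the pattern nearest to Cyr61 over the 4 channels, by Euclidean distance of log2 values from the gene's own mean, were Maged2 (distance 0.20), Mfap2 (0.32) and Gpx8 (0.34), where the median distance of all genes was 1.98. Those nearest to Ctgf were Ifi30 (0.051), Cdc25b (0.077) and Ranbp10 (0.12), with a median of 1.74. With only 4 channels, many genes come close by their position alone, and the distances are a description.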

How the data were processed

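Spot intensity and local background intensity of both channels were taken from the deposited scanner files, unnormalised, per the file headers; the 635 nm channel is Cy5 (wild type) and the 532 nm channel Cy3 (knockout), per the labels. Amplified RNA carried amino allyl groups for dye coupling, per the labels' protocols. Each array had 27456 spots, 2736 of them blank, and 4 flagged probes of the E14 Dlk+ array were left out. The authors' deposited log2 ratios (column medians -2.74e-05 for the P1 liver and 7.21e-07 for the E14 Dlk+ array) matched the ratio of knockout over wild type after subtraction of the trimmed blank mean and median centring (Pearson correlation across probes 1.00 on both), so scale, centring and direction are known. Scanner, software and genome build are not given in the sources used here.

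Ratios were made in R 4.3.3 with limma 3.58.1: normexp with an offset of 50 on the signal without the local background, which followed the spot signal (Spearman correlation 0.900 to 0.967), then loess with control spots at weight 0, and the mean over probes of a gene. The offset shrinks ratios of dim genes. Alternatives were median centring, print-tip loess, use of the local background, an offset of 16, the authors' values, 3 SD over blanks and the brightest probe. The threshold was the mean plus 2 SD of blank spots after removing 5% at each end. Among 23473 gene probes, 16631 carried 1 symbol, 6842 none that was given here and 0 several. Older symbols were replaced through the RefSeq gene table of GRCm38.p6. The steps were tested on simulated data. All 10 members were named, and of each list those at least 1.5-fold changed on either array and up to 4 of the brightest others. The members and lists were chosen with earlier results of these data known. Precision is limited by the number of arrays.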

Additional observations from a re-analysis of the deposited data

Results flagged for a closer look

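The values below had opposite signs on the 2 arrays, and each difference is the log2 ratio on the P1 liver array minus that on the E14 Dlk+ array. With 1 array each, none of these differences was tested. The median of the 10 YAP and TEAD genes differed by -0.40, that of the other Hippo pathway genes by -0.12 and that of the other YAP targets by -0.17. The E14 medians of these 2 lists, 0.036 (Hippo) and 0.031 (targets), were close to the 0.0068 of all genes. That of the Hippo genes turned to -0.0076 with the local background in normexp and to -0.092 with it subtracted. Under median centring the 2 medians were 0.37 and 0.16, beside 0.28 for all genes. Among the 10 genes the difference was -1.87 for Cyr61, -0.82 for Lats2, -0.81 for Amotl2, -0.77 for Ctgf, -0.40 for Wwtr1 and -0.36 for Tead1. Among the other YAP targets past 1.5-fold on an array it was -2.44 for Fstl1, -1.07 for Igfbp3 and -1.002 for Rbms3.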

How the results depend on the processing

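Cyr61 kept its sign under every setting tried, from -2.10 to -1.07 on the P1 liver array and from 0.51 to 1.22 on the E14 Dlk+ array, and Ctgf ranged from -0.88 to -0.39 and from 0.066 to 0.56 on the P1 liver and E14 Dlk+ arrays. Relative to the median of all genes, which median centring moved to 0.28 on the E14 Dlk+ array, Ctgf there was at -0.093 and Cyr61 at 0.94. On the P1 liver array the median of the 10 genes was -0.67 in the authors' values, -0.43 over the 8 genes above the blank mean plus 3 SD (Tead2 and Ankrd1 drop out), -0.43 with the brightest probe of a gene and -0.13 with the local background in normexp. The number at least 1.5-fold lower there was 6 in the authors' values, 4 with an offset of 16, 4 with the local background subtracted and 1 under median centring, where 12.2%, 6.37%, 14.8% and 2.52% of all genes were. On the E14 Dlk+ array the median was 0.32 in the authors' values, 0.23 with an offset of 16, 0.41 with the local background subtracted and 0.24 under median centring, the last lying -0.045 from the median of all genes. The number at least 1.5-fold higher there was 2, 1, 3 and 3 under the same settings, beside 5.38%, 0.645%, 14.2% and 24.8% of all genes. On the P1 liver array median centring put 10.2% of all genes at least 1.5-fold higher and 2.52% lower, against 2.84% and 4.12% with loess. Signs turned for Amotl2 on the P1 liver array (0.16 with the local background in normexp, 0.50 with it subtracted) and for Wwtr1 on the E14 Dlk+ array (-0.11 and -0.35 under the same settings). Under median centring they turned for Amotl1 (-0.022), Ankrd1 (-0.044) and Tead2 (0.063) on the E14 Dlk+ array, and Ankrd1 also stood at -0.035 on the P1 liver array. With the probe annotated as Tead1 alone, an alternative chosen after seeing the data, Tead1 stood at 0.019 on the P1 liver array and -0.0031 on the E14 Dlk+ array. The cause of these changes was not tested. Between the arrays, scaling each channel to its median in place of quantile normalisation kept the sign for all 10 genes in both genotypes, with Cyr61 at -3.01 in the knockout and -0.62 in the wild type. No paired analysis was possible because each comparison has 1 array. Dim signals limit Ankrd1, Amotl1, Yap1 and Tead2 most.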
